A study of Mus musculus with 20 samples.

Results

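Cytosolic ribosomal protein genes were examined in the livers of mice with and without Sirt2 and with and without repeated cold exposure. They were taken from the gene table by symbol: those that begin with Rpl or Rps and a digit, Rplp0 to Rplp2 and Rpsa, leaving out symbols that contain -ps and the Rps6k kinases. The rule gave 92 of 45306 genes. By role, 46 encode core proteins of the large subunit and 31 core proteins of the small subunit, 9 are paralogs of a core gene, 5 are other copies, and 1, Rps19bp1, encodes a protein that binds Rps19 and is not part of the ribosome.

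Liver RNA was sequenced from 5 mice in each of 4 groups, and all mice were C57BL/6. Control mice were wild type (WT) and kept at 24 °C. CE mice were WT and spent 3 h of each day at 4 °C over 3 weeks, Sirt2-/- mice lacked Sirt2 and stayed unexposed, and Sirt2-/-/CE mice lacked Sirt2 and were exposed. Mice were 5 weeks old at the start. The knockout was made in fertilized eggs and so is not restricted to hepatocytes, and the sex of the mice is not given in the sources used here. Libraries held 35499796 to 53917339 counts. Mice are named by the number in their label, 1 to 5 for Control, 6 to 10 for CE, 11 to 15 for Sirt2-/- and 16 to 20 for Sirt2-/-/CE.

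The cytosolic ribosome joins a small subunit, which reads the messenger RNA, with a large subunit, which forms the peptide bond, and each protein of a subunit is needed in a fixed proportion to the others. In liver, a tissue that secretes large amounts of protein, these genes are among the most abundant messengers. Many of their messengers begin with a C followed by a run of pyrimidines, the 5′ terminal oligopyrimidine (TOP) motif, through which the mTORC1 kinase and the protein LARP1 control their translation.

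The sequence at the start of transcription is shown for 7 members, because the TOP motif is the feature that these genes are known to share. RefSeq (GRCm38.p6) gave a promoter for 67 of the 92. Each window runs from 10 bases before the annotated start to 20 bases of the transcript, 5′ to 3′ on the strand of the gene, with the pyrimidine run that begins at the start in capitals. Rpl15 lies at chr14:18270967-18270996 on the minus strand, Rpl35 at chr2:39005112-39005141 (minus), Rps10 at chr17:27635225-27635254 (minus), Rps18 at chr17:33955646-33955675 (minus), Rps6 at chr4:86857348-86857377 (minus), Rps27 at chr3:90213629-90213658 (minus) and Rplp2 at chr7:141447641-141447670 (plus).
Rpl15: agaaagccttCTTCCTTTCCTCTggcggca
Rpl35: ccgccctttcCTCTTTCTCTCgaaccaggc
Rps10: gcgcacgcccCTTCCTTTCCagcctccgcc
Rps18: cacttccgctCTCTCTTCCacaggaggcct
Rps6: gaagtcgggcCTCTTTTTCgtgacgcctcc
Rps27: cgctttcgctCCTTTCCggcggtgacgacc
Rplp2: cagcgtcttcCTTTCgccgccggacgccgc

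The run at the start was 13 bases long in Rpl15 and 5 in Rplp2. A run of at least 5 pyrimidines that opens with C at the annotated start was found in 14 of the 67 members (20.9%), in 3.01% of all 27025 genes with a promoter, in 4 of 16 other genes listed as TOP transcripts, such as translation factors (25%), and in 0 of 68 mitochondrial ribosomal protein genes. A run of at least 8 pyrimidines within 20 bases of the start was found in 44.8% of members, 43.8% of the other TOP transcripts and 18.4% of all genes. CCGGAAG, the core of the site bound by ETS factors, was read on both strands of 250 bases before to 50 after the start. It was found in 38.8% of members, 9.93% of all genes and 36.8% of the mitochondrial ribosomal protein genes. TATAAA, read the same way, was found in 10.4% of members and 15.7% of all genes. These matches describe letters in the windows.

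Levels between genes are given as FPKM, the deposited value per length of gene. The 77 core members had 20-mouse means from 18.2 to 483 FPKM, with a median of 153, and 52 of them lay at 100 FPKM or more. Rps2, at the entry channel of the small subunit, was highest at 483 FPKM, followed by the stalk protein Rplp1 at 423 and by Rpl10, which completes the large subunit, at 385. Rpl21 (18.2 FPKM), Rps20 (20.5) and Rps15a (20.9) were lowest. A rank by FPKM depends on the annotated length. Rps20 (4080 exon bases) and Rps15a (6270) are long beside the core median of 1781 bases, and had means of 3328.9 and 3238.6 counts. Rpl38, with 542 exon bases, had a mean of 667 counts and 39.9 FPKM. Near-identical copies outside the rule, mostly processed pseudogenes, bear on some of these levels: for Rpl21 they held 89.7% of the counts of the gene and its copies together, for Rpl7a 82.6%, for Rpl17 81.6%, for Rps12 59.5%, for Rpl29 55.9% and for Rpl23a 50.5%. The level of these genes is therefore uncertain, because the handling of reads that match several places is not given in the sources used here. Strand was not given either, so counts of Rpl23a and of Tlcd1 on the other strand, which share 506 of the 847 exon bases of Rpl23a, cannot be told apart.

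**Figure D1:**
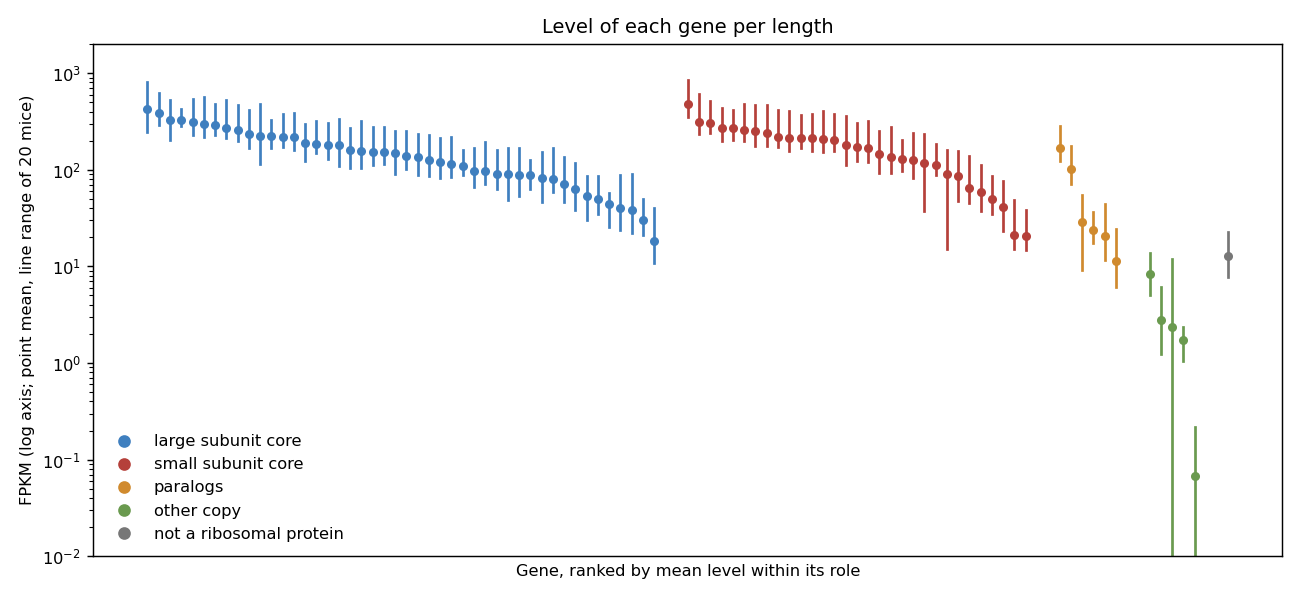
FPKM of each gene on a log axis, ranked within its role, with the point at the mean and the line from the lowest to the highest of 20 mice. Core members span 18.2 to 483 FPKM and the means of the other copies lie below 10; lines that reach the lower edge include mice at 0, and Rpl10l, Rpl39l and Rpl3l, with means under 0.05 FPKM, are not drawn.

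Of the 9 paralogs, 6 were measured. Rpl36al (168 FPKM) made up 64.9% ± 3.93 (SD, n = 20) of the summed FPKM of the pair with Rpl36a, and Rps27l (102 FPKM) 54.5% ± 9.24 of the pair with Rps27, so both lay near or above the level of the gene they resemble. Rpl22l1 (11.4 FPKM), the paralog of Rpl22, made up 20.5% ± 7.90, Rpl7l1 9.83% ± 1.42 of the pair with Rpl7, and Rps4l 8.85% ± 2.41 of the pair with Rps4x. Rps27rt, a retrotransposed copy that is near-identical to Rps27, made up 26.4% ± 15.7 of the pair with Rps27. The shares of Rps27l and Rps27rt reached 84.2% and 75.5% in CE. Because reads can match both Rps27 and Rps27rt, the level of Rps27 and the share of Rps27l are uncertain. The paralogs known from other tissues were at or near 0. The testis gene Rpl10l had 0 counts in 20 mice, which allows at most 3 counts in the 848314310 counts of all mice, Rpl39l had 12 counts and the muscle gene Rpl3l had 33. These floors cover counting error only. With the copy Rps12l2 (29 counts) they are the 4 members that did not pass the filter on low counts, and 88 were tested among 15616 genes.

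Tests used the counts. Values per mouse are CPM, the count of a gene relative to the library total after scaling by the TMM method, and can differ in direction from FPKM, which carry no such scaling. Fold changes came from edgeR's quasi-likelihood test with Benjamini-Hochberg adjustment over all 15616 genes. The p-values measure the spread between mice. Sirt2 counts were lower in the knockout mice and not absent, at 41.3 to 44.5 CPM in Control and 16.9 to 27.5 in Sirt2-/-. The log2 fold change was -0.94 ± 0.15 (SE; edgeR adjusted p = 0.0145), and -1.11 ± 0.15 in Sirt2-/-/CE against CE (adjusted p = 0.0043). The count covers the whole gene, and the exons targeted in the knockout cannot be read apart in it. Hepatocyte markers were present in every mouse (Alb 28600 to 63340 FPKM), and of 6 muscle and fat markers Ckm and Plin1 were at 0 in every mouse, Acta1, Myh4 and Adipoq reached at most 0.132 FPKM and Fabp4 lay at 1.2 to 15.3. In bulk liver, fewer cells of a type and less RNA per cell cannot be told apart.

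Core members lay largely on 1 side of their means in some mice and were mixed in others. For each member, log2 CPM was set against its own mean over 20 mice, and the values were averaged over the 77 core members. This core mean was 0.14, 0.02, 0.15, 0.00 and 0.23 in the Control mice. It was -0.05, 0.07, 0.22, -0.35 and -0.27 in CE, and -0.03, -0.26, -0.28, 0.23 and -0.51 in Sirt2-/-. In Sirt2-/-/CE it was 1.00, -0.20, -0.39, -0.13 and 0.39. The group means were 0.11 ± 0.10 in Control, -0.07 ± 0.24 in CE, -0.17 ± 0.28 in Sirt2-/- and 0.13 ± 0.57 in Sirt2-/-/CE (SD, n = 5), and the ranges overlapped.

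The spread within groups was wide. All 77 core members were above their mean in Sirt2-/-/CE mice 16 and 20, none in mice 17 and 18, and 16 in mouse 19. In Sirt2-/- mice, 0, 1 and 2 of 77 were above it in mice 13, 12 and 15, and 61 in mouse 14. In CE, 73 were above it in mouse 8 and 1 in mouse 9, and in Control between 37 and 76. Counts were mixed in Control mice 2 and 4 (45 and 37 of 77), CE mouse 6 (28) and Sirt2-/- mouse 11 (24). Large and small subunits gave nearly the same mean, for example 0.99 and 1.02 in mouse 16 and -0.50 and -0.54 in mouse 15. Members of 1 mouse thus largely move together, and counts of members in the comparisons below are not counts of independent observations.

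**Figure D2:**
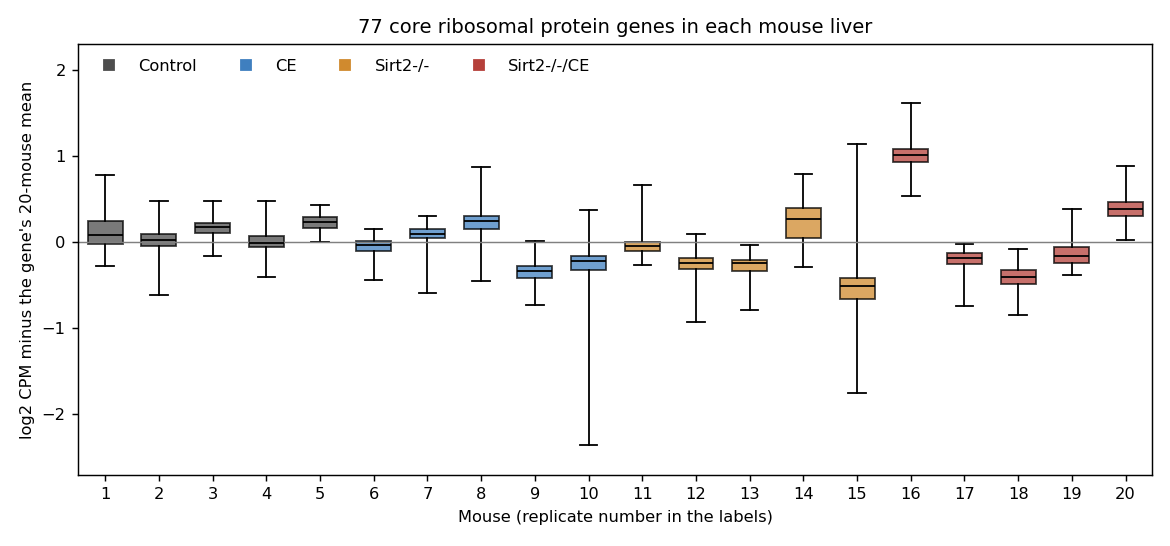
Each box holds the 77 core members in 1 mouse, as log2 CPM minus the gene's mean over 20 mice, with the line at the median, the box at the quartiles and the whiskers at the extremes. The box of mouse 16 lies apart from all others, with a core mean of 1.00, and the Control boxes spread least between mice.

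Mouse 16 stands apart and bears on each result for Sirt2-/-/CE. It was the highest of 20 mice in all 77 core members, and members took 2.03% of its counts, against 0.929% to 1.49% in the other 19 mice. Other measures moved with it. Its log2 CPM over all genes fell by 0.22 per doubling of exon length and was higher by 0.31 per 10 points of GC content, and its core mean after both trends were removed was 0.80. In the other 19 mice the length slope ran from -0.11 (mouse 14) to 0.11 (mouse 17). The GC slope ran from -0.13 (mouse 9) to 0.25 (mouse 14). The limma quality weight of mouse 16 was 0.207, the lowest of 20. Its 5 erythrocyte markers summed to 1033 FPKM; the sums were 287 to 659 in Control, 198 to 494 in CE, 179 to 669 in Sirt2-/- and 290 to 1033 in Sirt2-/-/CE, and none of the 5 markers was at 0 throughout. Mouse 15, lowest of 20 in 43 of 77 core members, had the lowest erythrocyte sum at 179 FPKM. Low sums also stood with low core means in CE mouse 10 (248 FPKM and -0.27), Sirt2-/- mouse 13 (264 and -0.28) and Sirt2-/-/CE mouse 17 (290 and -0.20). In Sirt2-/- mouse 11 the sum was 669 FPKM and the core mean -0.03, in Control mouse 2 they were 659 and 0.02, in mouse 19 they were 611 and -0.13, and in mouse 20 they were 290 and 0.39. CE mouse 8, with the next lowest sum of the 20 at 198 FPKM, had a core mean of 0.22, Control mouse 5 had 287 and 0.23, and CE mouse 9 had 494 and -0.35. The part of these measures in the results was not tested.

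**Figure D3:**
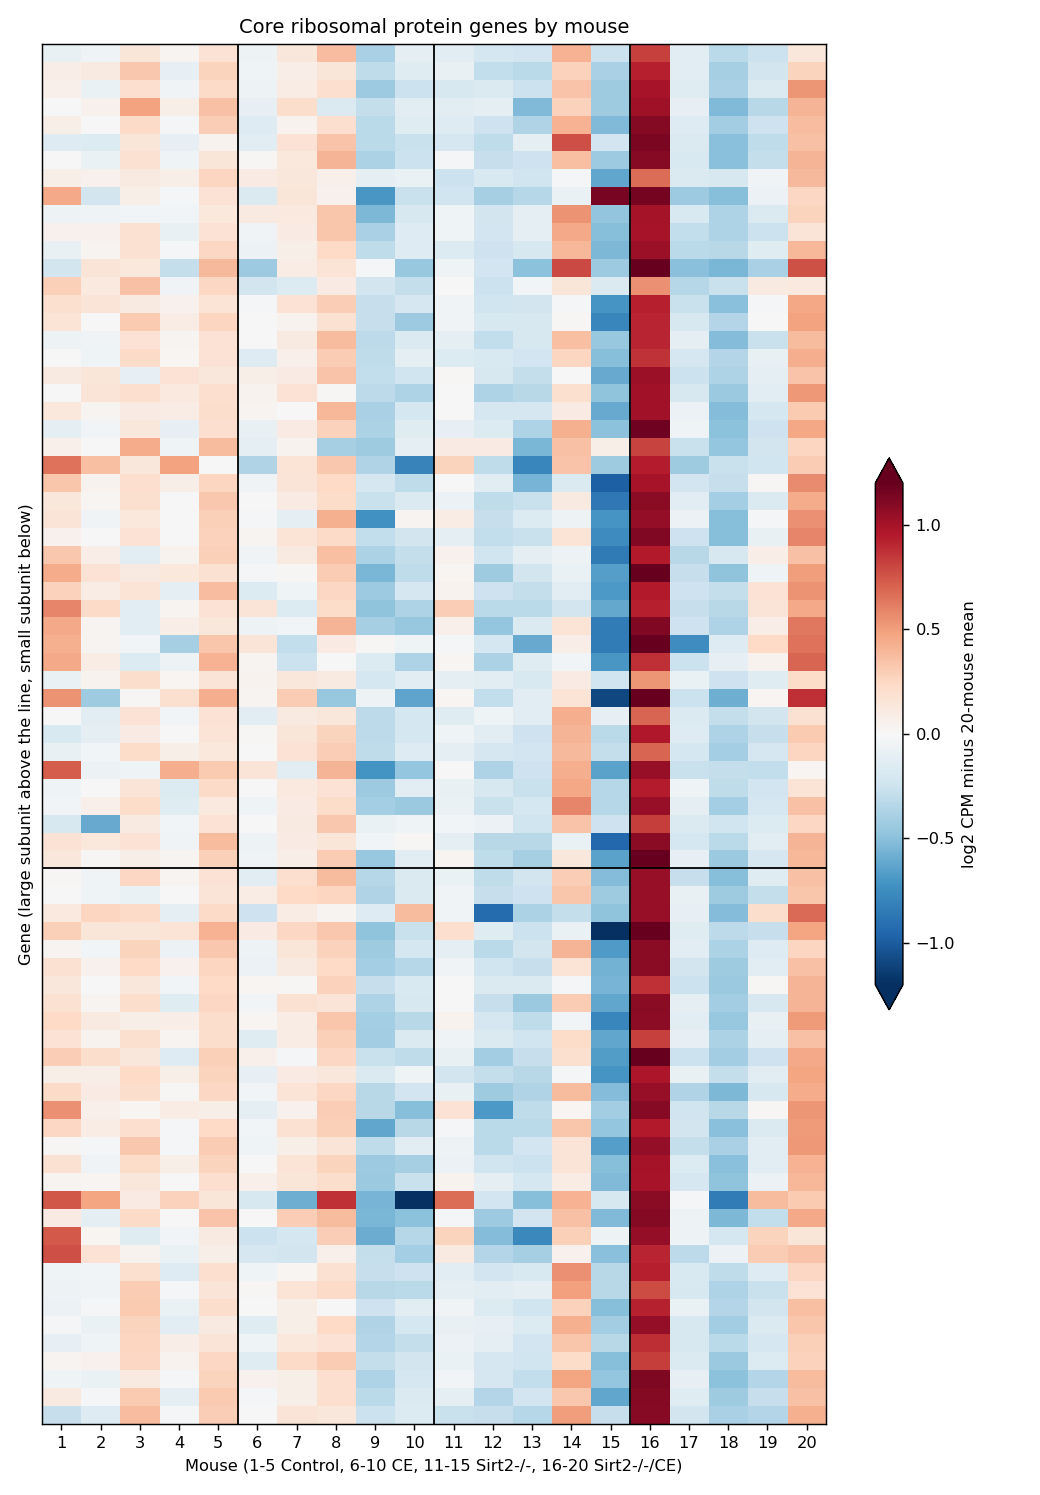
Colour gives log2 CPM minus the gene's 20-mouse mean for each of the 77 core members (rows) in each mouse (columns), on a scale capped at -1.2 and 1.2. Columns 16 and 20 are red throughout, and columns 9, 10, 12, 13, 15, 17 and 18 are blue in nearly all rows.

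CE was compared with Control to ask what repeated cold does in WT liver. Of the 88 members tested, 77 had a lower and 11 a higher fitted mean in CE, with a median log2 fold change of -0.14 against -0.01 for all genes. None was called at an edgeR adjusted p under 0.05, where 0.0064% of all genes were. DESeq2 and limma voom also called 0 members, against 169 and 540 of the 15616 genes. At an unadjusted edgeR p under 0.05 lay 2 members, both on the lower side, where 5.22% of all genes lay. With 1 mouse left out this count was 0 to 4, where 3.19% to 6.53% of all genes lay. With limma voom it was 12, where 10.1% of all genes lay. The lower side held 43 of 46 large subunit and 30 of 31 small subunit core members, and 3 of 6 paralogs. Of the markers of other cell types, none was called by edgeR in this comparison. The endothelial and stellate list had a median of -0.65 (6 of 8 lower), the leukocyte list -0.71 (5 of 7 lower), the erythrocyte list -0.26 (5 of 5 lower) and the cell cycle list 1.63 (5 of 5 higher, 3 at an unadjusted p under 0.05). The cell cycle genes summed to 12.5 FPKM in CE mouse 6 and 5.97 in CE mouse 9, and to 0.738 to 1.90 in the other 3 CE mice against 0.933 to 2.37 in Control. Their part in this and the later comparisons was not tested.

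Rpl22, a large subunit protein, was at 72.2, 64.2, 75.3, 57.4 and 70.3 CPM in Control and 50.8, 52.7, 63.3, 50.8 and 48.5 in CE. The CE mice lay lower apart from mouse 8, which overlapped Control, and the log2 fold change was -0.35 ± 0.15 (SE; edgeR adjusted p = 0.392). Rps29, a zinc-binding small subunit protein, was at 34.1, 22.5, 20.5, 18.9 and 20.9 CPM in Control and 17.33, 17.07, 20.76, 16.34 and 14.99 in CE. Control mouse 1 was high and the groups overlapped through CE mouse 8. Its log2 fold change was -0.44 ± 0.21 (SE; edgeR adjusted p = 0.463), and -0.26 without Control mouse 1. Rpl30 had -0.50 ± 0.27 (adjusted p = 0.548), and -0.27 with the counts of its near-identical copies added. On the other side were Rps19bp1 (0.25), Rplp0 (0.15) and Rps27rt (0.32), all with an adjusted p above 0.7. Without Control mouse 2 Rplp0 was at 0.05, and without CE mouse 10 Rps27rt was at 0.12.

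Sirt2-/- was compared with Control to ask what loss of Sirt2 does without cold. Here 81 members had a lower and 7 a higher fitted mean, with a median of -0.27 against 0.02 for all genes. With scaling by library size only, the median of all genes was 0.16 and that of members -0.14, and the split was 61 lower and 27 higher. Again 0 members were called by edgeR, against 0.89% of all genes. An unadjusted p under 0.05 was found for 6 members (6.82%), all on the lower side, and for 6.78% of all genes on that side. With 1 mouse left out, that count of 6 ran from 2 without mouse 15 to 9 without mouse 11 or mouse 14, where 4.83% to 8.04% of all genes passed on that side. It was 19 in a fit of these 2 groups alone (7.13% of all genes), 34 with limma voom (10.9%) and 42 without mice 14 and 16 (7.76%). With scaling by library size only it was 1 (3.79% of all genes), and 2 members passed on the higher side (15.7% of all genes). DESeq2 called 0 members and 607 of the 15616 genes. With quality weights, limma voom called 2 members (2.27%), Rplp1 (-0.48) and Rps12 (-0.69), and 5.8% of all genes. The median was -0.36 without mouse 14, whose quality weight of 0.281 was the next lowest, and -0.20 without mouse 15. In 8 of 88 members (9.09%) every Sirt2-/- mouse lay below every Control mouse, against 2.16% of all genes. Rpl15, Rpl22l1, Rplp1 and Rps2 are among them. The lower side held all 31 small subunit core members and 43 of 46 of the large subunit, and 4 of 6 paralogs. All 5 erythrocyte markers (median -0.37) and all 5 cell cycle genes (-1.23) lay lower as well. The cell cycle genes summed to only 0.640 to 1.62 FPKM in Sirt2-/- and 0.933 to 2.37 in Control, and 0 had an unadjusted edgeR p under 0.05. The leukocyte list had a median of -0.46 (4 of 7 lower), and the endothelial and stellate list went the other way at 0.16 (6 of 8 higher).

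Rplp1, of the acidic stalk that recruits elongation factors, was at 240, 232, 241, 208 and 278 CPM in Control and 197, 169, 170, 202 and 111 in Sirt2-/-. Every Sirt2-/- mouse was lower, and the log2 fold change was -0.50 ± 0.22 (SE; edgeR adjusted p = 0.279). Rps2 was at 550, 550, 616, 550 and 631 CPM in Control and 450, 430, 417, 518 and 320 in Sirt2-/-, again without overlap, and had -0.44 ± 0.19 (adjusted p = 0.283). Rpl15, whose TOP run is shown above, had -0.37 ± 0.15 (adjusted p = 0.259), and Rps12, a small subunit protein, -0.55 ± 0.23 (adjusted p = 0.254). With the counts of its near-identical copies added, Rps12 had -0.40 (adjusted p = 0.394). Of the other stalk members, Rplp2 had -0.32 ± 0.24 and Rplp0, their anchor, 0.05 ± 0.20, and the difference between the 3 was not tested. Rps19bp1 (0.39), Rpl7l1 (0.22) and Rps12l1 (0.49 ± 1.03) had the lowest p on the higher side, none under 0.1. Without mouse 14 they were at 0.16, 0.10 and -1.45.

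Sirt2-/-/CE was compared with Sirt2-/- for cold without Sirt2, and with CE for loss of Sirt2 under cold. Against Sirt2-/-, 86 members had a higher and 2 a lower fitted mean, with a median of 0.37 against 0.01 for all genes. The edgeR test called 0 members and 0% of all genes. DESeq2 and limma voom also called 0 members, against 7 and 0 of the 15616 genes. An unadjusted p under 0.05 was found by edgeR for 22 members (25%), all on the higher side, against 3.96% of all genes on that side. Of the 22, 16 were core members of the large and 5 of the small subunit. Without mouse 16 the median was 0.07, and 62 members lay on the higher and 26 on the lower side. An unadjusted edgeR p under 0.05 was then found for 2 members on the higher side, where 2.69% of all genes lay. The count of 22 was 47 without mouse 18 (5.26% of all genes on that side), 42 without mouse 14 (4.53%), 8 to 10 without mouse 12, 13, 15 or 20 (2.23% to 4.3%), 6 in a fit of these 2 groups alone (2.56%) and 1 with limma voom (3.16%). All 5 erythrocyte markers (median 0.63, and 0.23 without mouse 16) and all 5 cell cycle genes (1.00) lay higher as well. The endothelial and stellate list had a median of 0.13 (6 of 8 higher) and the leukocyte list 0.13 (4 of 7 higher). Against CE, 85 were higher and 3 lower with a median of 0.28, and 0 were called by edgeR against 0.0128% of all genes. DESeq2 and limma voom called 0 members, against 31 and 2 of the 15616 genes. An unadjusted p under 0.05 was found for 3 members (3.41%), on the higher side, and for 3.89% of all genes on that side. That count of 3 was 17 without mouse 18 (4.37% of all genes), 15 with scaling by library size only (6.78%) and 0 without mouse 16 (3.45%). Without mouse 16 that median was -0.01, with 37 higher and 51 lower, so its direction rested on 1 mouse. The 8 endothelial and stellate markers had a median of 0.92, with 7 higher and 4 at an unadjusted p under 0.05, and summed to 12.8 to 81.8 FPKM in CE and 75.1 to 101 in Sirt2-/-/CE. The 5 erythrocyte markers had 0.57, or 0.07 with 3 higher and 2 lower without mouse 16, and the 5 cell cycle genes -1.67, with 3 at an unadjusted p under 0.05. None of these markers was called by edgeR, and none was at 0 throughout.

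Rps12 was at 40.2, 21.8, 31.9, 34.0 and 29.6 CPM in Sirt2-/- and 85.8, 38.8, 28.9, 48.1 and 66.6 in Sirt2-/-/CE. Mice 16 and 20 were high, and mice 17 and 18 lay within the range of Sirt2-/-. The log2 fold change was 0.77 ± 0.23 (SE; edgeR adjusted p = 0.503), and 0.54 without mouse 16. With its copies added, the value was 0.51. Rps2 had 0.56 ± 0.19 (adjusted p = 0.559), and 0.32 without mouse 16. Rps29 was at 37.69, 15.99, 18.90, 24.55 and 25.21 CPM in Sirt2-/-/CE, and mice 17 and 18 lay within the range of CE. Its log2 fold change against CE was 0.50 ± 0.21 (edgeR adjusted p = 0.710), and 0.29 without mouse 16. Rpl39, a short protein of the exit tunnel, was at 19.45, 15.88, 18.98, 16.96 and 14.64 CPM in CE and 34.9, 15.9, 17.7, 19.6 and 31.0 in Sirt2-/-/CE. Mice 16 and 20 were again high, and the value was 0.47 ± 0.21 (adjusted p = 0.754), or 0.29 without mouse 16. The lowest p on the lower side belonged to Rps3a3, a copy of Rps3a1 (-0.28 ± 0.27 against Sirt2-/- and -0.44 ± 0.27 against CE, and -0.46 and -0.64 without mouse 16). Rps3a2 (-0.15) and Rps12l1 (-0.05) were the other 2 members that lay lower against CE.

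**Figure D4:**
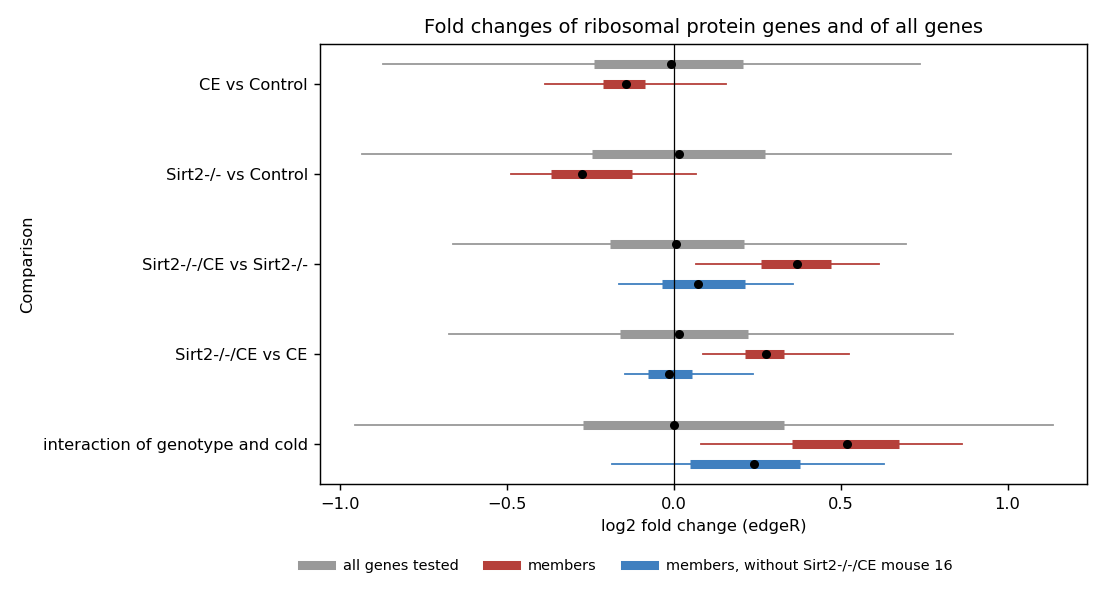
For each comparison, the bar spans the quartiles, the line the 5th to the 95th percentile and the point the median of the edgeR log2 fold change over genes. The quartiles of members lie below 0 in CE and Sirt2-/- against Control, where the lines cross 0, and above 0 in the others, where leaving out mouse 16 moves the medians from 0.37 to 0.07, from 0.28 to -0.01 and from 0.52 to 0.24.

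The interaction asks whether the log2 change with cold differs between genotypes. All comparisons share groups, so their values are set side by side and not counted as separate evidence. The interaction was above 0 in 85 members and below 0 in 3, with a median of 0.52 against 0.00 for all genes and 0.24 without mouse 16. Of the marker lists, the erythrocyte list had a median of 0.87 (5 of 5 above 0, and 0.47 without mouse 16) and the endothelial and stellate list 0.69 (7 of 8 above 0, and 0.70 without it), and the cell cycle list had -0.56 (5 of 5 below 0). None of these markers was called by edgeR, and their part was not tested. The edgeR test, DESeq2 and limma voom called 0 members, and edgeR 0% of all genes. Of the 15616 genes, DESeq2 called 41 and limma voom 0. An unadjusted p under 0.05 was found for 20 members (22.7%), all above 0, against 4.73% of all genes above 0. With 1 mouse left out, that count was lowest at 7 without mouse 16 (4.15% of all genes) and 8 without mouse 15 (3.34%), and highest at 41 without mouse 14 (5.16%) and 47 without mouse 18 (5.42%). Rps29 (0.93 ± 0.29, and 0.72 without mouse 16), Rpl39 (0.87 ± 0.29, and 0.69 without it) and Rpl22l1 had the lowest p.

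Rpl22l1 (GRCm38 chr3:28805436-28807424, plus strand) had the largest value of the 3. It was at 9.13, 6.97, 8.91, 6.75 and 10.3 CPM in Control, 5.65, 5.98, 5.43, 7.11 and 6.89 in CE, 5.18, 5.41, 4.10, 6.12 and 3.97 in Sirt2-/-, and 15.5, 6.44, 4.05, 6.81 and 14.7 in Sirt2-/-/CE. Sirt2-/- did not overlap Control, and in Sirt2-/-/CE mice 16 and 20 were at more than the highest Control value while mice 17 to 19 were not. The log2 fold change was -0.76 ± 0.28 for Sirt2-/- against Control (SE; edgeR adjusted p = 0.193) and 0.94 ± 0.28 for Sirt2-/-/CE against Sirt2-/- (adjusted p = 0.503), or 0.70 without mouse 16. The interaction was 1.38 ± 0.40 (edgeR adjusted p = 0.382), and 1.14 without mouse 16. As a share of the pair with Rpl22, Rpl22l1 was 19.8% ± 3.25 in Control, 19.6% ± 7.33 in CE, 16.3% ± 3.85 in Sirt2-/- and 26.1% ± 12.4 in Sirt2-/-/CE (SD, n = 5), with overlapping ranges.

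**Figure D5:**
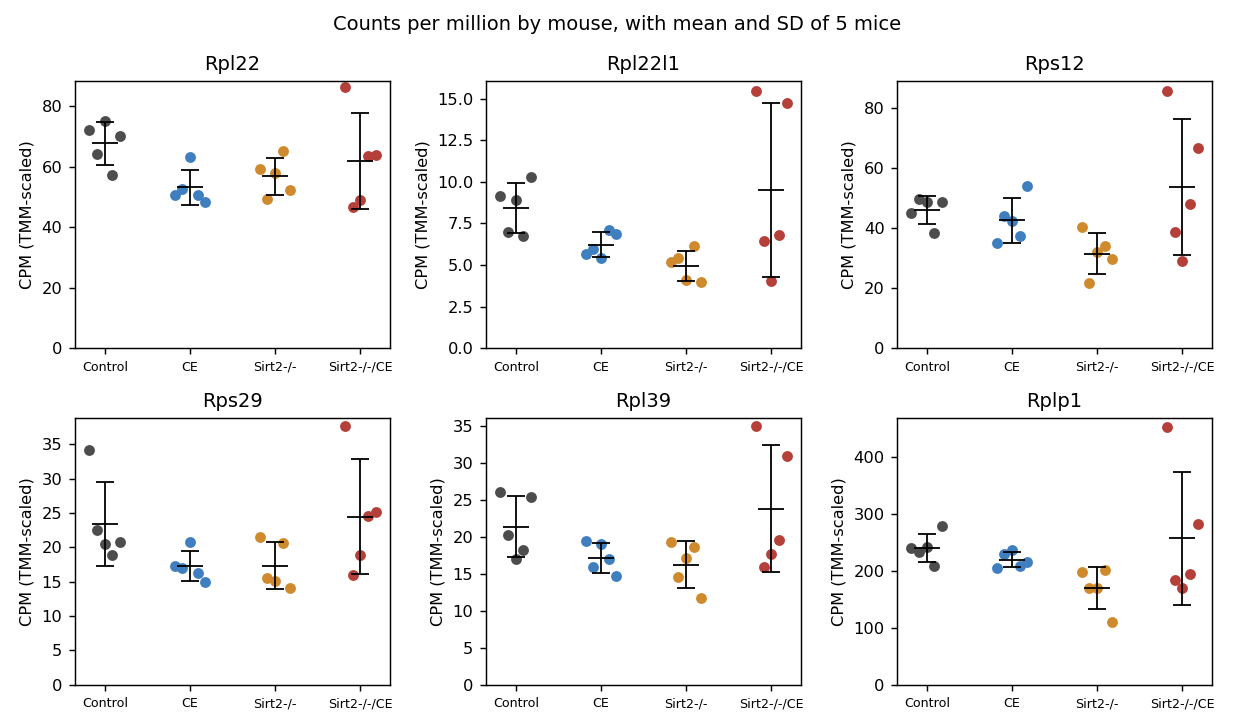
CPM of 6 members in each mouse, with the mean and SD of 5 mice per group and axes that start at 0. In Rplp1 and Rpl22l1 the Sirt2-/- mice lie below all Control mice, and in each panel the highest point is mouse 16.

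Members with known roles outside the ribosome overlapped between groups. Rps6, the substrate of S6 kinase, had group means of 304 ± 30.8 CPM in Control, 276 ± 45.0 in CE, 276 ± 52.6 in Sirt2-/- and 324 ± 127 in Sirt2-/-/CE (SD, n = 5). Rpl11, which binds Mdm2, had 190 ± 18.4, 171 ± 30.1, 166 ± 36.5 and 215 ± 92.0 CPM, and Rpl5, its partner there, 234 ± 21.7, 216 ± 29.5, 230 ± 43.5 and 242 ± 76.8. For each of these 3 the SD of Sirt2-/-/CE was the widest. Rps27a, made as a fusion with ubiquitin, had 104 ± 12.8, 93.7 ± 27.3, 86.5 ± 22.2 and 114 ± 56.1 CPM. Rpl13a, linked to translational control in inflammation, had 270 ± 25.3, 274 ± 56.0, 286 ± 105 and 325 ± 167, and Rpsa, the laminin receptor precursor, 437 ± 84.7, 413 ± 51.7, 392 ± 111 and 491 ± 244. In Rpl5, Rpl13a and Rpsa, Sirt2-/- mouse 14 was far above the other 4 mice of its group. None of these genes was called by edgeR in any comparison.

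A few members often lay on the other side of their mean from the majority. Rps4l did so in 9 of 20 mice, and Rpl37rt, Rpl7l1, Rps12l1, Rps19bp1, Rps27rt and Rps3a3 in 8. None of these is a core member, and a core member did so in at most 7 mice. Rpl7l1, a paralog with a role in nucleolar processing, was at 59.1 ± 5.43 CPM in Control, 62.6 ± 3.10 in CE, 69.0 ± 15.2 in Sirt2-/- and 70.0 ± 13.8 in Sirt2-/-/CE (SD, n = 5).

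Related lists give the setting, with the same test. Of the ribosomal proteins outside the symbol rule, Fau, made as a fusion with a ubiquitin-like protein, lay at -0.18 (CE) and -0.16 (Sirt2-/-) on the log2 scale relative to Control, and at 0.33 in Sirt2-/-/CE against Sirt2-/- (-0.01 without mouse 16). Gnb2l1, the scaffold Rack1, had -0.07, -0.06 and 0.19 (-0.02 without it). The 78 mitochondrial ribosomal protein genes had medians of -0.01 for CE and 0.02 for Sirt2-/- (each against Control), 0.13 for Sirt2-/-/CE against Sirt2-/- and 0.19 against CE, and the last 2 were -0.07 and -0.01 without mouse 16. The 22 other TOP transcripts, among them translation factors, had -0.05, -0.09, 0.07 and 0.02 in the same order, and the last 2 were -0.06 and -0.10 without mouse 16. The 55 tested genes of ribosome biogenesis had -0.13, 0.09, -0.15 and 0.09, and the last 2 were -0.27 and -0.04 without mouse 16. In that list the lowest p was that of Riok2, Imp4, Dkc1 and Nle1 in turn (log2 fold changes of -0.70, 0.40, -0.49 and 0.76). The 23 regulators of mTORC1, LARP1 and MYC had 0.03, -0.05, -0.04 and -0.07, and 0.02 and -0.04 without mouse 16. No gene of these lists was called by edgeR.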

How the data were processed

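The authors deposited 1 table with a read count and an FPKM value per gene and mouse. The deposited counts are whole numbers that were not normalized, and the deposited FPKM values are scaled by the authors to gene length and depth. Per the labels, messenger RNA was enriched on oligo(dT) beads and copied with random hexamers, and the submitters' processing notes name the build mm10. The aligner, the counter and their settings are not given in the sources used here. Of the lines, 9 hold no gene and were left out, and 0 columns of values were unused.

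Genes were kept by edgeR's filterByExpr (minimum count 10, minimum total 15). One fit (R 4.3.3, edgeR 4.0.16, TMM) held all 20 libraries, and the quasi-likelihood test gave the 4 pairs and the interaction, at an adjusted p under 0.05. The tests were checked on simulated data. Centred values used log2 CPM with a prior count of 2. Near-identical copies matched a transcript of GENCODE M21 at 95% identity over at least 150 bases, of which at least 50 were coding (BLAST+ 2.17.0). The length and GC trends used 95.0% of tested genes.

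Samples were grouped by their labels. The members and the lists were chosen with earlier results of these data known. Genes were named by a rule: stalk proteins and Rpsa, members with roles outside the ribosome, paralogs and their parents, the 3 highest and 3 lowest core members by FPKM, the 3 lowest p on each side of a comparison, and members most often opposed to the majority. Members that did not overlap between groups were named after their values were seen. Some genes are not reported here by name. Alternatives were DESeq2 1.42.0, limma 3.58.1 voom with quality weights, other scalings and filters, fits of the compared groups alone, each mouse left out, copies added, the length and GC trends removed, log2(FPKM + 1), and core members alone. Leaving out mice 14 and 16 together was chosen after seeing the data, as were removing the trends from the core mean of each mouse and leaving mouse 16 out of the medians of the related lists.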

Additional observations from a re-analysis of the deposited data

Results flagged for a closer look

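In Sirt2-/-, mouse 14 was far above the other 4 mice in 5 named members. Rpsa was at 589 CPM against 330 to 347 in the others, Rpl13a at 473 against 224 to 257, Rpl10 at 447 against 281 to 308, Rpl7 at 312 against 196 to 221 and Rpl5 at 308 against 206 to 220. In the same group, the copy Rps27rt was at 16.7 CPM in mouse 13 against 7.03 to 8.82, and the copy Rps3a3 at 0.765 CPM in mouse 15 against 1.48 to 1.75. These 7 came from 152 sets of 5 mice, and chance gives about 1 in 20.

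Near-identical copies outside the rule took a larger share of counts than in any Control mouse (0.155% to 0.189%) in 3 mice: 0.212% in Sirt2-/- mouse 14, 0.277% in Sirt2-/-/CE mouse 16 and 0.207% in mouse 20. The core mean of these mice was 0.23, 1.00 and 0.39. How far reads of members and copies were exchanged was not tested.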

How the results depend on the processing

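No member was called by edgeR under any alternative scaling, filter or left-out mouse, nor by DESeq2; limma voom with quality weights called 2 in Sirt2-/- against Control. No paired analysis was possible because the mice are numbered 1 to 20 and no number is shared between groups. The interaction has no fit of compared groups alone, since it uses all 4.

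The median member log2 fold change of Sirt2-/-/CE against CE turned to -0.0808 with limma voom and -0.0128 without mice 14 and 16, and with 1 mouse left out ran from -0.0123 (without mouse 16) to 0.40. The medians of the other comparisons kept their direction, and with 1 mouse left out ran from -0.23 (without mouse 8) to -0.07 (without mouse 9) for CE against Control, -0.36 to -0.20 for Sirt2-/- against Control, 0.07 to 0.49 for Sirt2-/-/CE against Sirt2-/- and 0.24 to 0.63 for the interaction. With limma voom they were -0.15, -0.31, 0.04 and 0.23, and with the length and GC trends removed -0.09, -0.24, 0.26 and 0.38; Sirt2-/-/CE against CE was then 0.15, from 0.28. The cause was not tested.

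Of 29 values for single genes, those of 4 genes turned. For the low-count copy Rps12l1, Sirt2-/- against Control was -2.27 with limma voom, -1.45 without mouse 14 (to 1.08 without mouse 5) and -1.46 without mice 14 and 16. Its value for Sirt2-/-/CE against Sirt2-/- was 1.86 with limma voom, 1.67 without mouse 14, 0.03 without mouse 17 (and -1.27 without mouse 20) and 1.80 without both. Against CE it was 0.0109 with upper-quartile scaling, 0.52 without mouse 9, 0.08 without mouse 16, 0.24 without mouse 17, 0.21 without mouse 18 (and -1.03 without mouse 20) and 0.0798 without both. Its interaction was 1.34 with limma voom, 0.03 without mouse 9, 1.41 without mouse 14 (and -1.53 without mouse 20) and 1.54 without both. Rpl22l1 against CE was -0.0006 with limma voom, Rps3a2 against CE was 0.20 without mouse 6, and the interaction of Rpl7l1 was 0.061 without mouse 14, 0.0002 without mouse 18 and -0.18 without mouse 16. Rps12 in Sirt2-/- against Control passed the threshold with limma voom alone (-0.69, adjusted p = 0.0498).

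Among tested members depth was least for the copies: core members each had a mean of 667 counts or more, and Rps12l1 had 42.1.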
